A study of Mus musculus with 24 samples.

Results

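Gart, Cbr1, Cbr3, Hlcs, Slc5a3, Cryzl1 and Pigp are 7 protein-coding genes of mouse chromosome 16 (Mmu16) that lie within the segment present in 3 copies in the Ts65Dn mouse. They encode metabolic enzymes and a transporter of inositol. They were taken by gene symbol from the 55385 genes of the count table, with earlier results of these data known. The segment from Mir155 to Zbtb21 holds 286 genes of that table. Levels were measured by RNA-Seq in the hippocampus (HIP) and entorhinal cortex (EC) of 6 Ts65Dn male mice and 6 wt male littermates aged 5 to 6 months, which gave 24 libraries from 12 mice. All mice were on the F1 B6C3B background, and the wt mice carry 2 copies of each gene. The Ts65Dn mouse is a model of Down syndrome in which a small extra chromosome carries this Mmu16 segment together with a centromeric segment of Mmu17 that has no counterpart on human chromosome Hsa21. Its extra dose is therefore not confined to counterparts of human chromosome Hsa21 genes. The 3 copies against 2 set a reference fold of 1.5 for every member.

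The 7 products work in separate pathways. Gart is the trifunctional enzyme that carries out several steps of de novo purine synthesis, the route that builds the purine ring from small precursors, and it lies at chr16:91621186-91646952 on the minus strand. Cbr1, at chr16:93605853-93610505 on the plus strand, and its paralog Cbr3, at chr16:93683215-93690990 on the plus strand, are NADPH-dependent carbonyl reductases, enzymes that reduce ketones, aldehydes and quinones. Cryzl1, at chr16:91689322-91728975 on the minus strand, is related to the quinone reductases. Hlcs, at chr16:94128882-94313571 on the minus strand, is the holocarboxylase synthetase that attaches biotin to the carboxylases. Pigp, at chr16:94358763-94371842 on the minus strand, is a subunit of the enzyme that begins the glycosylphosphatidylinositol (GPI) anchor. Slc5a3, at chr16:92058322-92087473 on the plus strand, is the sodium and myo-inositol cotransporter, which brain cells use to take up inositol as an osmolyte and as a precursor of phosphoinositides. Coordinates are those of GRCm38.

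Cbr1 and Cbr3 are close in sequence, so it was asked first whether 50-base reads could be assigned to either. Their coding sequences are 834 bases each, and 648 of 832 aligned bases were identical, or 77.9%. The longest identical run was exactly the length of 1 read, at coding positions 146 to 195 of both genes. This stretch is shown because it is the only place where a read of 50 bases without mismatch could come from either gene. The identical run is in capitals, and the windows are chr16:93608096-93608175 for Cbr1 and chr16:93683455-93683534 for Cbr3, both on the plus strand and each within 1 coding exon.
Cbr1: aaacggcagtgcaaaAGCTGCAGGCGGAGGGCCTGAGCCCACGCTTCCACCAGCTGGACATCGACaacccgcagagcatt
Cbr3: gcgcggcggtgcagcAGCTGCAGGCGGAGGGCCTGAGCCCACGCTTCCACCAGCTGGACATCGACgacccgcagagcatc
Of the 2645 stretches of 50 bases in the Cbr1 transcripts, 1 also occurred in Cbr3, and the counts of the paralogs can be read as separate measurements. On the same strand, 48 stretches of Cbr1 also occurred in Gm5678, an annotated gene between Cbr1 and Cbr3.

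The other members share sequence with other annotated genes to differing degrees. Pigp had 20.9% of its 2077 stretches of 50 bases in common, on the same strand, with genes such as Gm9001 and Gm15310, and 11% with Ttc3 on the opposite strand. Gart shared 15.5% with Gm15964 and Cryzl1 shared 8.81% with opposite-strand genes, chiefly Gm10785. Reads from a gene and its opposite-strand partner cannot be told apart here, because the strand setting of the counting is not given in the sources used here. The counts of Pigp, Gart and Cryzl1 are uncertain to that extent, whereas Hlcs and Slc5a3 shared at most 1.5% of their stretches with other genes on either strand.

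Slc5a3 starts 14 bases before Mrps6, which encodes a protein of the small mitochondrial ribosomal subunit, and both genes use the same first exon, with 159 exonic bases in common. The promoter window that RefSeq gives for Slc5a3 (GRCm38.p6, 250 bases before to 50 after the start, chr16:92058072-92058371, plus strand) overlaps that of Mrps6 over 286 of 300 bases. It is shown because the levels of the 2 genes are compared below. Capitals mark the letters GGGCGG, the core of a GC box, searched on both strands.
Slc5a3 promoter: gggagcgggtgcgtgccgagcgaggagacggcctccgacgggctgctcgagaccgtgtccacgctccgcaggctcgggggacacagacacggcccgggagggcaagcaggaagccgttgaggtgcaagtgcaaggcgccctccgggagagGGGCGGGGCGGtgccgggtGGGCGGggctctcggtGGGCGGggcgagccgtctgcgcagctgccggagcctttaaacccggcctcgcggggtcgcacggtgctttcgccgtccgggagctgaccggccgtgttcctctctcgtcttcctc
GGGCGG occurred at 4 positions of this window, the leftmost pair overlapping by 1 base, and 35.7% of 32851 mouse promoter windows held it at least once. All 7 members had a RefSeq promoter, Hlcs and Pigp with more than 1 window. The members are counted per gene and the percentages per window, so the members' counts cannot be set directly against them. At least 1 window of every member but Cbr1 held GGGCGG. The Cbr1 promoter (chr16:93607587-93607886, plus strand) is shown as that exception. Its capitals mark GCGCATGCG, a motif of nuclear respiratory factor, and CCAAT, the box bound by NF-Y.
Cbr1 promoter: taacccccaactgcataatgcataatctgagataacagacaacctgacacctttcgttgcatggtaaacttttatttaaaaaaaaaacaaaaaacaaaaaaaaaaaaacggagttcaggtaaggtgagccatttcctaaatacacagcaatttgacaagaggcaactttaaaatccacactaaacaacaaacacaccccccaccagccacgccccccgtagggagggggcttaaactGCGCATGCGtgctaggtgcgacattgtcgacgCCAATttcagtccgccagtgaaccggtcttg
GCGCATGCG, also searched on both strands, was in 1.75% of all windows and, among the members, also in Pigp, while CCAAT was in 37.4% of all windows. TGACNNNGC, the core of the antioxidant response element, was in none of the members' windows and in 12.4% of all windows.

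The count on genes ranged from 23128589 to 40476492 per library, and every member had at least 185 counts in every library. The library labelled Ts65Dn replicate 3 stood apart in both regions. Over 92 tested genes of the Mmu16 segment, its median fold against the wt mean was 1.02 (HIP) and 0.994 (EC), against 1.44 to 1.54 in the other 5 Ts65Dn libraries of the HIP and 1.46 to 1.52 in those of the EC. The label was kept, and the genotype comparisons of the members are given with and without this library. It was singled out after the data were seen, by the levels of segment genes that include the members. The folds, calls and p-values without it depend on that choice. Neuronal, hippocampal and cortical markers were present in all libraries, with summed hippocampal markers of 578 to 849 CPM (counts relative to the TMM-scaled library total) in the HIP and 103 to 124 CPM in the EC. Choroid plexus markers varied most, from 53.6 to 5118 CPM in the HIP and from 8.82 to 50.8 CPM in the EC. The only markers called between genotypes were the microglial P2ry12 and the striatal Drd2. P2ry12, 1 of 4 microglial markers tested, was lower in Ts65Dn in the HIP (log2 fold change -0.27 ± 0.057, SE) and EC (-0.45 ± 0.091). The summed microglial markers had medians of 234 CPM (wt) and 235 CPM (Ts65Dn) in the HIP, and 281 and 266 CPM in the EC. Drd2, 1 of 5 striatal markers tested, was higher in the EC (1.56 ± 0.33). The part of these markers in the results was not tested. In bulk tissue, fewer cells of a type and less RNA per cell cannot be told apart.

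**Figure D1:**
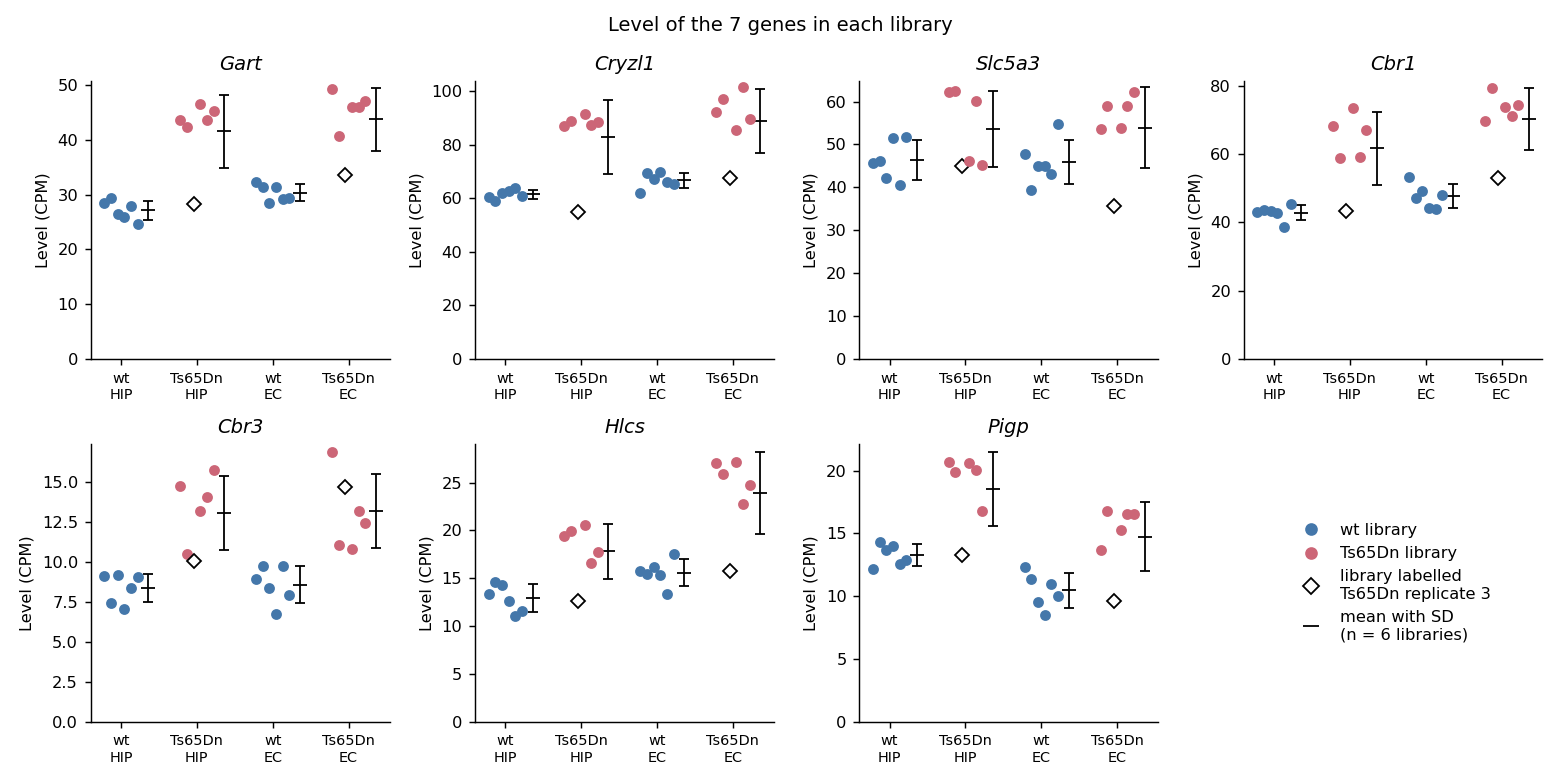
TMM-scaled level in CPM (y axis, from 0) of each member in each of the 24 libraries, by genotype and region (x axis), with the mean and SD of 6 libraries at the right of each group. Open diamonds are the library labelled Ts65Dn replicate 3, which sits at the wt level for most genes but at 14.6 CPM for Cbr3 in the EC, among the other Ts65Dn libraries.

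Per length, the levels of the members in wt mice spanned about an order of magnitude. In the wt HIP, Cbr1 was highest at 16.8 ± 0.86 CPM per kilobase of exon (SD, n = 6), followed by Cryzl1 at 13.6 ± 0.36, Pigp at 6.68 ± 0.44, Cbr3 at 6.66 ± 0.72, Gart at 5.27 ± 0.34, Slc5a3 at 4.25 ± 0.43 and Hlcs at 1.45 ± 0.16. Pigp and Cbr3, neighbours in this order, did not differ beyond their spread. In the wt EC the order was Cbr1 (18.7 ± 1.37), Cryzl1 (14.7 ± 0.65), Cbr3 (6.82 ± 0.93), Gart (5.90 ± 0.30), Pigp (5.26 ± 0.69), Slc5a3 (4.20 ± 0.47) and Hlcs (1.75 ± 0.15). There Cbr3 and Gart, and likewise Gart and Pigp, lay within their SDs of each other. In Ts65Dn mice, the same enzymes headed and closed the order in both regions, with Cbr1 at 24.1 ± 4.15 and Hlcs at 1.99 ± 0.33 CPM per kilobase in the HIP, and at 27.5 ± 3.55 and 2.68 ± 0.48 in the EC.

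The comparison of Ts65Dn with wt asks whether each gene follows its copy number. In the HIP, 4 of the 7 genes (Gart, Cbr1, Cbr3 and Pigp) were called higher in Ts65Dn at a Benjamini-Hochberg adjusted p under 0.05 in edgeR's quasi-likelihood test, against 0.542% of the 17355 genes tested. In the EC, 5 of the 7 (Gart, Cbr1, Cbr3, Hlcs and Cryzl1) were called higher, against 1.15% of the 17049 genes tested. Of the tested genes of the segment, which share the extra copy, 42 of 90 were called higher in the HIP, and 43 of 87 for the EC. No member was called lower, against 0.501% and 1.35% of all genes in the HIP and EC, and all 7 fitted folds were above 1 in both regions. They ranged from 1.15 to 1.56 in the HIP, with a median of 1.39, and from 1.17 to 1.53 in the EC, with a median of 1.43, beside medians of 1.41 and 1.42 over the 90 and 87 tested genes of the segment. Without the library labelled Ts65Dn replicate 3, 6 members were called in the HIP and all 7 in the EC, against 1.06% and 1.42% of all genes tested. The call missing then was Slc5a3 in the HIP. Every Ts65Dn library lay above every wt library for 1 member in the HIP (Cbr3) and 2 in the EC (Gart and Cbr3), against 0.674% and 1.24% of all genes. With that library left out, this held for all members but Slc5a3, 6 of 7 in each region, against 1.97% and 2.29% of all genes. That library was singled out by the low levels of the segment genes. The counts without it are therefore not independent support for a rise of the members.

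Gart, the purine synthesis enzyme, rose in both regions. In the HIP, its level ran from 24.7 to 29.3 CPM in the wt libraries (median 27.1) and from 28.3 to 46.5 CPM in the Ts65Dn libraries (median 43.6). The lowest Ts65Dn value was the library labelled replicate 3, the only one inside the wt range, and the next was 42.3 CPM. The log2 fold change was 0.61 ± 0.099 (SE, adjusted p = 0.0139), or 1.53-fold. Without replicate 3 it was 0.70 ± 0.052, or 1.62-fold. In the EC, Gart ran from 28.4 to 32.3 CPM in wt (median 30.3) and from 33.5 to 49.2 CPM in Ts65Dn (median 45.9), with no overlap. The log2 fold change there was 0.52 ± 0.083 (adjusted p = 0.00803), and 0.59 ± 0.057 without replicate 3. Gart was called in all 12 fits that left out 1 mouse in each region.

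The carbonyl reductases Cbr1 and Cbr3 rose in both regions, but their Ts65Dn libraries were spread differently. Cbr1 ran from 38.7 to 45.3 CPM in the HIP of wt mice, with a median of 43.2 CPM, and from 43.3 to 73.4 CPM in the Ts65Dn HIP (median 63.0), a log2 fold change of 0.52 ± 0.099 (adjusted p = 0.0269). In the EC, it ran from 44.0 to 53.4 CPM in wt (median 47.6) and from 53.0 to 79.3 CPM in Ts65Dn (median 72.5), a log2 fold change of 0.55 ± 0.085 (adjusted p = 0.00680). In each region 5 of 6 Ts65Dn libraries were above every wt library, and the one that was not was replicate 3. Cbr3, the less abundant paralog, ran from 7.07 to 9.14 CPM in the HIP of wt mice, with a median of 8.69 CPM, and from 10.1 to 15.7 CPM in the Ts65Dn HIP (median 13.6), with a log2 fold change of 0.64 ± 0.117 (adjusted p = 0.0239). In the EC it ran from 6.72 to 9.75 CPM in wt (median 8.61) and from 10.8 to 16.9 CPM in Ts65Dn (median 12.8), with a log2 fold change of 0.61 ± 0.120 (adjusted p = 0.020). Its groups did not overlap in either region. For Cbr3 the library labelled Ts65Dn replicate 3 was not at the wt level, with folds against the wt mean of 1.21 (HIP) and 1.71 (EC), while the 6 other members in that library had folds from 0.895 to 1.04 (HIP) and from 0.780 to 1.11 (EC). Among the remaining 5 Ts65Dn libraries, Cbr3 spanned 1.25- to 1.88-fold in the HIP and 1.26- to 1.97-fold in the EC. Without replicate 3, the log2 fold changes of Cbr1 were 0.60 and 0.62, and those of Cbr3 were 0.70 and 0.58, in the HIP and EC.

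In the HIP, the calls of both reductases were close to the threshold. Of the 12 fits that each left out 1 mouse, 5 called Cbr1 and 6 called Cbr3, with adjusted p-values of at most 0.0656 and 0.0556. Both calls were lost without any 1 of Ts65Dn replicates 1, 4 and 6 and wt replicates 2, 3 and 5, and that of Cbr1 also without wt replicate 6. In the EC, Cbr1 was called in all 12, and Cbr3 in 11, the exception being the fit without Ts65Dn replicate 1 (adjusted p = 0.0531).

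Cryzl1, the quinone reductase relative, had the smallest fold after Slc5a3. It was tight among wt mice, from 59.2 to 63.8 CPM in the HIP (median 61.5), and ran from 55.1 to 91.3 CPM in the Ts65Dn HIP (median 88.0). Replicate 3 was below every wt library there, and the other 5 lay between 86.9 and 91.3 CPM. Its log2 fold change was 0.43 ± 0.097 (adjusted p = 0.0546), which did not pass the test, and it was 0.52 ± 0.034 (adjusted p = 3.37e-06) without replicate 3. In the EC, Cryzl1 ran from 61.9 to 69.9 CPM in wt (median 66.7) and from 67.5 to 101 CPM in Ts65Dn (median 90.9), a log2 fold change of 0.41 ± 0.081 (adjusted p = 0.0221), and 0.48 ± 0.053 (adjusted p = 0.000196) without replicate 3. The EC call was lost without Ts65Dn replicate 1 (adjusted p = 0.0580) or replicate 2 (adjusted p = 0.0505).

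Hlcs, the biotin ligase, rose in the EC. It ran from 13.3 to 17.5 CPM in the wt EC (median 15.6) and from 15.8 to 27.2 CPM in the Ts65Dn EC (median 25.3), where replicate 3 was the lone library within the wt range. The fitted change was 0.61 ± 0.116 on the log2 scale (adjusted p = 0.0174), and 0.70 ± 0.072, or 1.63-fold, without replicate 3. Leaving out Ts65Dn replicate 1 took the adjusted p to 0.0531. In the HIP, Hlcs ran from 11 to 14.6 CPM in wt (median 13) and from 12.7 to 20.5 CPM in Ts65Dn (median 18.6). Its log2 fold change of 0.46 ± 0.112 did not pass the test (adjusted p = 0.0767), and without replicate 3 it was 0.54 ± 0.088 (adjusted p = 0.00662).

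Pigp, the GPI anchor subunit, passed the test in the HIP. It ran from 12.2 to 14.3 CPM in the HIP of wt mice, with a median of 13.3 CPM, and from 13.3 to 20.7 CPM in the Ts65Dn HIP (median 20.0), a log2 fold change of 0.48 ± 0.10 (adjusted p = 0.0379), or 0.56 ± 0.070 without replicate 3 (adjusted p = 0.000761). When each mouse was left out in turn, this call held in 1 of 12 fits, the one without Ts65Dn replicate 3, and the adjusted p-value reached at most 0.0873. In the EC it ran from 8.54 to 12.3 CPM in wt (median 10.5) and from 9.62 to 16.7 CPM in Ts65Dn (median 15.9). The fitted log2 change there was 0.49 ± 0.132 (adjusted p = 0.0643), and 0.58 ± 0.097 (adjusted p = 0.00608) without replicate 3. The shared stretches of Pigp with Ttc3 and with the processed copies apply to both regions.

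**Figure D2:**
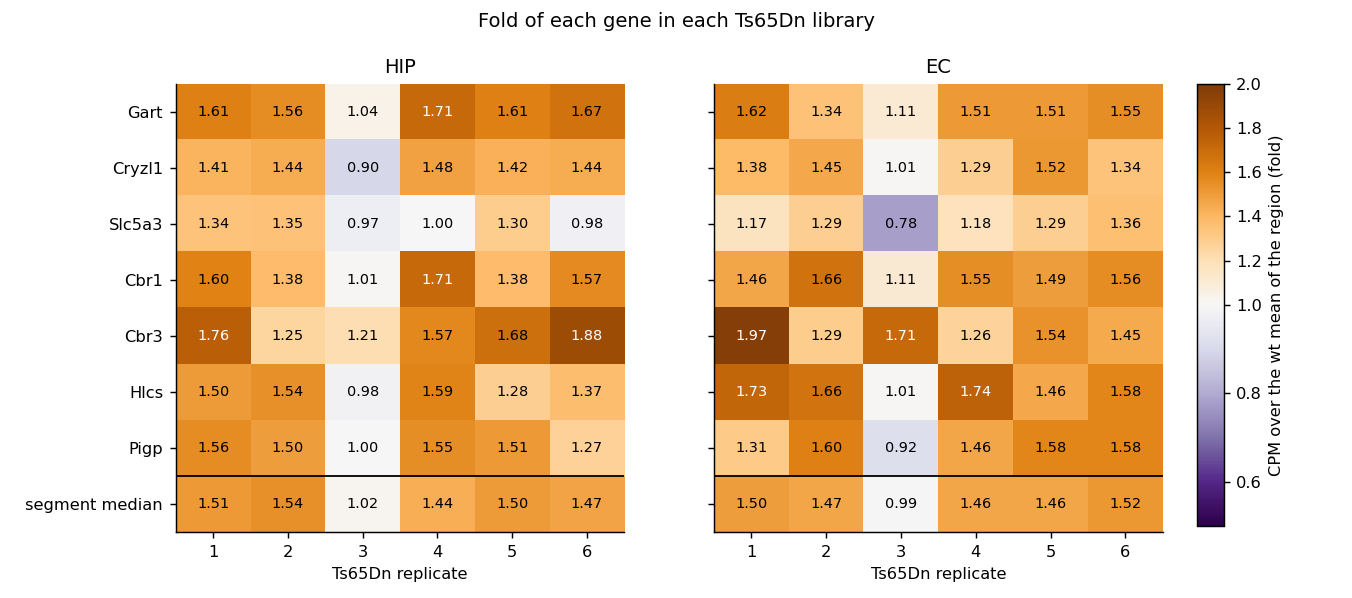
CPM over the mean of the 6 wt libraries of the region (colour and printed value) for each member (rows) in each Ts65Dn library (columns), with the median of 92 segment genes in the bottom row. In replicate 3 the folds are between 0.780 and 1.11 for every member but Cbr3.

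Slc5a3, the inositol transporter, had the smallest fold of the members and did not pass the test in either region with all mice. In the HIP, it ran from 40.6 to 51.8 CPM in wt (median 45.9). The 6 Ts65Dn libraries lay in separate ranges, at 62.2, 62.4 and 60.1 CPM in replicates 1, 2 and 5, and at 45.0, 46.2 and 45.3 CPM in replicates 3, 4 and 6, which lay within the wt range. The log2 fold change was 0.21 ± 0.101 (adjusted p = 0.364), or 1.15-fold with a 95% interval from 0.992 to 1.34. Without replicate 3 it was 0.25 ± 0.10 (adjusted p = 0.227). In the EC, Slc5a3 ran from 39.4 to 54.7 CPM in wt (median 45.0). Replicate 3 was at 35.8 CPM, below every wt library, and the other 5 Ts65Dn libraries were between 53.7 and 62.3 CPM. Its log2 fold change was 0.23 ± 0.116 (adjusted p = 0.306), or 1.17-fold with an interval from 0.986 to 1.39, and without replicate 3 it was 0.32 ± 0.075 (adjusted p = 0.0371), or 1.25-fold. Leaving out any other single mouse gave no call for Slc5a3.

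Choroid plexus, the tissue that secretes cerebrospinal fluid, differed in amount between the HIP libraries. Its 6 markers (Ttr, Folr1, Kl, Kcnj13, F5 and Otx2) summed to 5118, 2404 and 1492 CPM in Ts65Dn replicates 1, 2 and 5, where Slc5a3 was above 60 CPM. They summed to 53.6 and 118 CPM in replicates 4 and 6, where it was near 46, but to 3091 CPM in replicate 3, where it was at 45.0 CPM. In the wt HIP, the sums ran from 89.1 to 4862 CPM. The wt library with the lowest sum had 40.6 CPM of Slc5a3, its lowest wt value. The one with the highest sum had 46.1 CPM, and those between had 42.2 to 51.8 CPM. In the EC the sums were 8.82 to 26.6 CPM in Ts65Dn and 12.0 to 50.8 CPM in wt. None of the 6 markers was at 0 throughout a group. Tests could be run on 6 of them (HIP) and on 4 (EC), and none was called between genotypes. The part of choroid plexus in the Slc5a3 values of the HIP was not tested.

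Mrps6, which shares its start with Slc5a3, gave a comparison within each library that does not depend on the scaling of the libraries. This comparison was chosen after the data were seen. For Mrps6, the log2 fold change was 0.66 ± 0.146 (HIP, adjusted p = 0.0502) and 0.73 ± 0.115 (EC, adjusted p = 0.00726), or 1.58- and 1.66-fold. Without replicate 3, Mrps6 was called in both regions, at 0.76 ± 0.111 (HIP, adjusted p = 0.00269) and 0.82 ± 0.079 (EC, adjusted p = 5.78e-05), and its interval in the EC, 1.57- to 1.99-fold, lay above 1.5, a difference that did not pass in edgeR over the segment genes (adjusted p = 0.127). The ratio of Slc5a3 to Mrps6 in the HIP ran from 3.04 to 4.25 in wt and from 2.24 to 3.45 in Ts65Dn, where the highest value was replicate 3 and the next was 2.98. Its geometric mean was 3.53 in wt and 2.61 in Ts65Dn, a difference of -0.44 on the log2 scale (exact two-sided permutation test, p = 0.0108). Without replicate 3 the groups did not overlap and the difference was -0.52 (exact permutation p = 0.00216, the smallest that 462 splits can give). In the EC the ratio ran from 2.83 to 4.23 in wt (geometric mean 3.45) and from 2.10 to 2.86 in Ts65Dn (2.43), a difference of -0.51 (exact permutation p = 0.00433), or -0.50 without replicate 3 (exact permutation p = 0.00649). Adjusted over the 4 tests, these p-values were at most 0.0108. The tests with and without replicate 3 share libraries, and the adjustment does not cover the choice of the comparison after the data were seen. In the EC, replicate 3 had a ratio of 2.37, within the range of the other Ts65Dn libraries, although Slc5a3 was below the wt range and Mrps6 within it there.

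**Figure D3:**
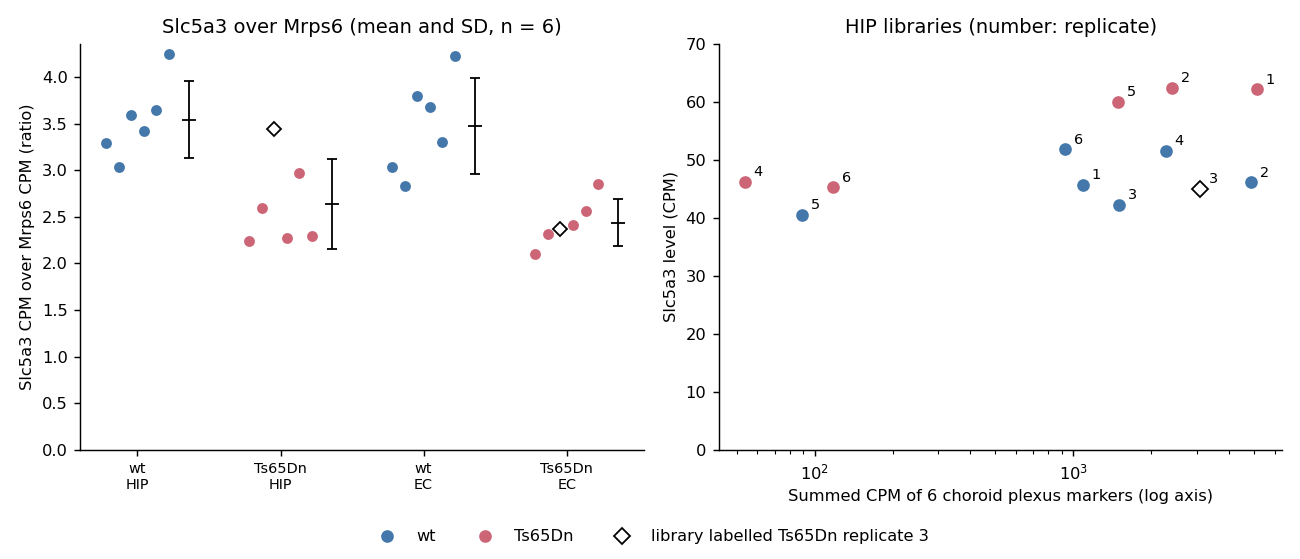
Left, ratio of Slc5a3 to Mrps6 CPM (y axis) in each library by group, with the mean and SD of 6 libraries; right, Slc5a3 level in CPM (y axis) against the summed CPM of the choroid plexus markers (log axis) in the HIP libraries, numbered by replicate. The geometric mean ratio is lower in Ts65Dn in both regions, and the groups overlap through replicate 3 of the HIP, at 3.45, and through 1 library of the EC, at 2.86 beside the lowest wt value of 2.83.

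Each fold was then tested against 1.5, with p-values adjusted over all tested genes of the Mmu16 segment. With all mice, the folds include replicate 3, whose segment median was 1.02 (HIP) and 0.994 (EC) rather than near 1.5. No member passed in either region, although 2.22% of 90 segment genes (HIP) and 2.3% of 87 (EC) were below 1.5. At an unadjusted p under 0.05, only Slc5a3 was below 1.5 in the HIP, and Slc5a3 and Cryzl1 were below it in the EC. These stand beside 13.3% and 10.3% of the segment. Leaving replicate 3 out, 7 of 92 segment genes (HIP) and 6 of 89 (EC) were below 1.5 at that threshold. In each region, 5 segment genes were then above it. Slc5a3 was nearest to passing, with adjusted p = 0.0642 in the HIP and 0.223 in the EC (edgeR). Without replicate 3, Slc5a3 had adjusted p = 0.0990 in the HIP and 0.0976 in the EC (edgeR). It passed in the HIP without Ts65Dn replicate 2 (adjusted p = 0.0331) and without a filter on low counts (adjusted p = 0.0471), and not in the EC under any alternative. The 95% interval of its fold excluded 1.5 in both regions, with upper bounds of 1.34 and 1.39, also without replicate 3 (1.38 and 1.40). Slc5a3 had the third lowest fold of the 90 tested segment genes in the HIP and the fifth lowest of 87 in the EC. For Cryzl1 in the EC, the interval was 1.18 to just under 1.5 (unadjusted p = 0.0452, adjusted p = 0.412). With replicate 3 left out, this interval was 1.29 to 1.51 and held 1.5 (edgeR, unadjusted p = 0.0602, adjusted p = 0.412). For the other 5 members, the interval held both 1.5 and the segment median, from 1.16 to 1.62 for Hlcs and 1.31 to 1.85 for Cbr3 in the HIP. A fold between the bounds, above or below 1.5, cannot be told from 1.5 with 6 mice per group. Without replicate 3, the interval of Gart in the HIP was 1.5 to 1.76 (unadjusted p = 0.0474, adjusted p = 0.347) and that of Hlcs in the EC was 1.46 to 1.81.

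**Figure D4:**
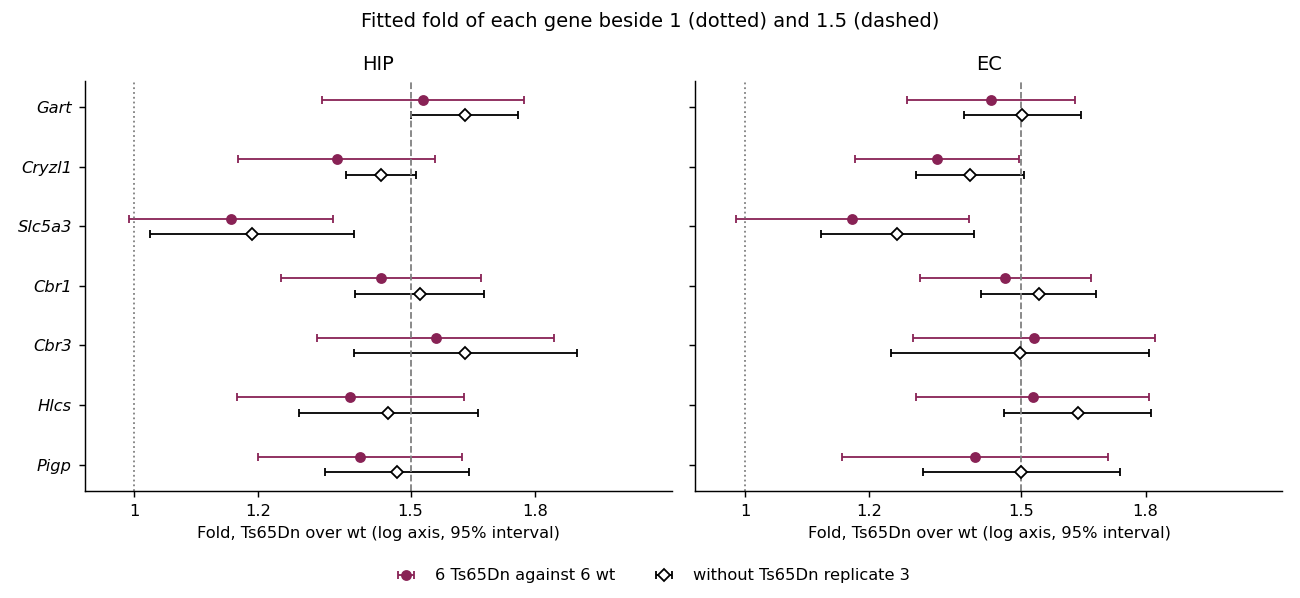
Fitted fold of Ts65Dn over wt (log axis) with its 95% interval for each member in the HIP and EC, with all 6 mice per group (filled) and without Ts65Dn replicate 3 (open). The interval of Slc5a3 stays below the dashed line at 1.5 in all 4 fits, and those of the other members reach it or come within a few hundredths of it.

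The nearest annotated genes on the segment give the local background. Son, an RNA-splicing factor next to Gart, had folds of 1.26 (HIP) and 1.18 (EC), both below 1.5 (adjusted p = 0.0485 and 0.0256), while Gart itself was at 1.53 and 1.43. Without replicate 3, Son was at 1.31 and 1.23 (adjusted p against 1.5 = 0.00866 and 0.00483, edgeR), and the other neighbours called then were between 1.35 and 1.60. Dnajc28, on the other side of Gart, had folds of 1.29 and 1.32. Atp5o and Itsn1, which flank Cryzl1, were at 1.41 and 1.44 (HIP) and at 1.42 and 1.47 (EC). Dop1b, next to Cbr3, was at 1.51 and 1.43, and Setd4, next to Cbr1, at 1.40 and 1.53. Gm5678, which shares stretches with Cbr1, was at 1.42 and 1.69 with SEs of 0.43 and 0.26 on the log2 scale. Ttc3, next to and partly opposite Pigp, was at 1.43 and 1.44. Ripply3, between Hlcs and Pigp, was tested in the EC alone (2.09-fold, log2 SE 0.30), and Kcne2, beyond Slc5a3, in the HIP alone (1.75-fold, log2 SE 0.84). Of the antisense genes, Gm15964 had a fold of 1.25 in the HIP (log2 SE 0.32), and Gm10785 had folds of 1.38 and 1.32 (log2 SE 0.20 and 0.30).

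The regions of the same mice were compared next. In wt mice, 5 of the 7 members differed between HIP and EC, near the 61.3% of 17196 genes that did. Of these, 4 were lower in the HIP and 1 was higher, against 30.3% and 31.0% of all genes. Hlcs was lower in the HIP (log2 difference -0.28 ± 0.069, adjusted p = 0.00541), as were Gart (-0.16 ± 0.045, adjusted p = 0.00859), Cbr1 (-0.16 ± 0.041, adjusted p = 0.00733) and Cryzl1 (-0.12 ± 0.038, adjusted p = 0.0184), each in 6 of 6 mice. Pigp was higher in the HIP by 0.35 ± 0.087 (adjusted p = 0.00575), in 5 of 6 mice. For Cbr3 and Slc5a3 the differences were -0.04 ± 0.087 and 0.01 ± 0.054, with 95% intervals of the ratio from 0.851 to 1.11 and from 0.929 to 1.10. In Ts65Dn mice, 3 members differed, against 52.3% of 17314 genes, with 2 lower in the HIP and 1 higher, against 25.7% and 26.6%. Hlcs was lower in the HIP (-0.43 ± 0.055, adjusted p = 0.000115) and Cbr1 was lower (-0.20 ± 0.061, adjusted p = 0.0191), each in 6 of 6 mice, and Pigp was higher (0.33 ± 0.079, adjusted p = 0.0052) in 6 of 6 mice. The same 3 passed without replicate 3. The Cbr1 call in Ts65Dn was lost without Ts65Dn replicate 2 (adjusted p = 0.0613) or replicate 5 (adjusted p = 0.0723).

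Whether the effect of genotype differed between regions was tested by the interaction of genotype and region, with a term for each mouse. No member passed in edgeR, against 0.0% of 18109 genes, of which 742, or 4.1%, had an unadjusted p under 0.05. DESeq2 likewise called none. No member was under 0.05 unadjusted, the lowest being Hlcs (unadjusted p = 0.0957), with a genotype effect smaller in the HIP than in the EC by -0.15 ± 0.084 on the log2 scale. Without replicate 3, no member passed either, with adjusted p-values of 0.780 and more. With all mice, the other interactions lay between -0.04 and 0.08. Their intervals bound the ratio of the folds in the HIP and EC to between 0.868 and 1.09 for Cbr1, 0.960 and 1.17 for Gart, and 0.829 and 1.17 for Slc5a3.

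The partners of the members in their pathways lie outside the triplicated segments. Of the 79 listed partner genes found in the count table, not all of which were tested in each region, 1 was called in the HIP and 3 in the EC. Over all genes, 1.04% and 2.5% were called in either direction, and these counts are not read as a departure from those shares. The median fold of each list was between 0.988 and 1.05, beside 1.0 over all genes. In purine synthesis and salvage, none of 17 tested genes was called in the HIP, where Adsl, adenylosuccinate lyase, had the lowest unadjusted p (log2 fold change 0.13 ± 0.072, adjusted p = 0.427). In the EC, 1 of 16 was called. Prps2, which makes the phosphoribosyl pyrophosphate that feeds the pathway of Gart, ran from 46.7 to 50.4 CPM in wt and from 37.7 to 44.7 CPM in Ts65Dn, with no overlap. Its level fell by 0.23 ± 0.048 on the log2 scale (adjusted p = 0.0245), and by 0.24 without replicate 3 (adjusted p = 0.0251). Leaving out each mouse in turn, 7 of 12 fits called it.

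Of the 9 genes of biotin use, which include the carboxylases that Hlcs acts on, none was called in either region. Pcx, pyruvate carboxylase, had the lowest unadjusted p in the HIP (log2 fold change 0.15 ± 0.042, adjusted p = 0.109), and the biotin transporter Slc5a6 in the EC (0.14 ± 0.078, adjusted p = 0.366). Of the genes of inositol and osmolyte handling, none of 12 in the HIP and none of 11 in the EC was called. Isyna1, which makes inositol from glucose 6-phosphate, had the lowest unadjusted p in both regions, with log2 fold changes of 0.39 ± 0.093 (adjusted p = 0.0706) and 0.39 ± 0.117 (adjusted p = 0.0854), and 0.37 and 0.43 without replicate 3 (adjusted p = 0.0798 and 0.0803). DESeq2 called it in both regions (adjusted p = 0.00689 and 0.0232). Its level was 23.8 ± 3.44 CPM in Ts65Dn and 18.1 ± 1.77 CPM in wt in the HIP, and 24.3 ± 3.22 and 18.3 ± 3.40 CPM in the EC (SD, n = 6). Slc6a12, a betaine transporter named here after its values were seen, was low, at 2.05 ± 0.87 and 0.945 ± 0.31 CPM in the HIP, with a log2 fold change of 1.12 ± 0.28 (adjusted p = 0.0836). Slc5a11, another sodium and myo-inositol cotransporter and also named after its values were seen, was at 0.42 ± 0.46 CPM in Ts65Dn and 0.728 ± 0.27 CPM in wt in the HIP. Its log2 fold change was -0.79 ± 0.49 (adjusted p = 0.482) with all mice, and it was called lower without replicate 3 (-1.64, adjusted p = 0.0214).

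Of 22 GPI anchor genes, none was called in the HIP, where Pigq, a partner of Pigp in the same enzyme, had the lowest unadjusted p (0.12 ± 0.040, adjusted p = 0.189). In the EC, Gpaa1, a subunit of the transamidase that attaches the anchor to proteins, was called higher (0.22 ± 0.054, adjusted p = 0.0484), and it was not called without replicate 3 (adjusted p = 0.0507), and leaving out each mouse in turn it was called in 2 of 12 fits. Of 19 carbonyl and quinone reductases outside the segment, Akr7a5, an aldo-keto reductase, was called higher in both regions. It ran from 9.74 to 13.1 CPM in wt and from 14.1 to 17.2 CPM in Ts65Dn in the HIP, and from 12.1 to 15.7 and from 17 to 24.9 CPM in the EC, with no overlap in either. Its log2 fold changes were 0.44 ± 0.081 (adjusted p = 0.0239) and 0.44 ± 0.093 (adjusted p = 0.0268), and 0.47 and 0.36 without replicate 3 (adjusted p = 0.0136 and 0.0258). Leaving out each mouse in turn, 5 of 12 fits called it in the HIP and 7 in the EC. Akr7a5 is in 2 copies, and unlike Cbr1 it was above every wt library also in the library labelled Ts65Dn replicate 3.

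**Figure D5:**
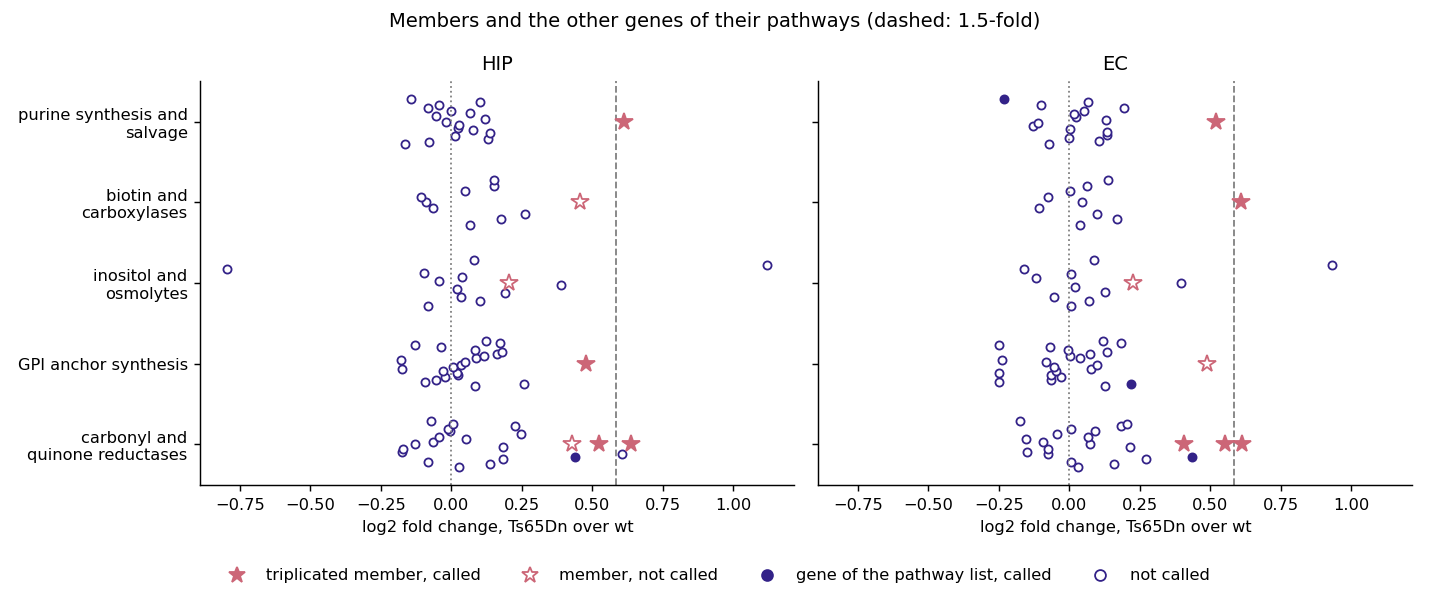
log2 fold change of Ts65Dn over wt (x axis) for the members (stars) and for the tested genes of the 5 pathway lists (circles), in the HIP and EC, filled where called. Of the circles, Akr7a5 is filled in both regions and Prps2 and Gpaa1 in the EC, and the members lie to the right of most genes of their own list.

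Across the 24 libraries, the gene whose log2 CPM was most like that of each member, among 18108 genes, was on a triplicated segment for every member. It was Atp5j for Gart (Pearson r = 0.97), Wrb for Cbr1 (0.96), Mrpl39 for Cryzl1 (0.96), Hmgn1 for Pigp (0.92), Cfap298 for Cbr3 (0.84) and Morc3 for Slc5a3 (0.79), all on Mmu16, and Zdhhc14 on Mmu17 for Hlcs (0.94). For Cbr3, the genes next in rank, Tubb4a (0.84) and Nckipsd (0.83), were close to Cfap298 and lie outside the triplicated segments. Among the members, the correlations ran from 0.27 between Cbr3 and Slc5a3 to 0.93 between Gart and Cryzl1. These libraries share genotype, region and mouse, and the correlations are given as a description.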

How the data were processed

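The authors aligned single-end reads of 50 bases to GRCm38 (mm10) with Hisat2 and counted them per gene with HTSeq, using Ensembl release 99, and the deposited counts are raw whole numbers. The labels and the study's methods differ on the library kit, and the strand setting is not given in the sources used here. The 4 other deposited tables hold the authors' own DESeq2 and FCROS comparisons (fold changes and p-values) and were not used. The submitters' processing notes also name bcl2fastq 2.17.1.14.

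The 7 genes, the pathway lists and the marker lists were chosen with earlier results of these data known. Genes were named as every member, the called pathway genes, the pathway gene with the lowest unadjusted p in each list and the nearest annotated genes. Within each region, 6 Ts65Dn and 6 wt libraries were compared with edgeR 4.0.16 in R 4.3.3 (filterByExpr, TMM, quasi-likelihood test, Benjamini-Hochberg adjustment over all genes tested, threshold 0.05). A fold was tested against 1.5 by an offset on the Ts65Dn libraries, adjusted over the tested genes of the segment. Each fold has a 95% t interval. Levels are TMM-scaled CPM, and log2 CPM used a prior of 0.5. Regions were compared with the mouse as a block. The labels number the mice, and deviations of the HIP and EC libraries of the same mouse correlated by 0.171 to 0.472. The scripts were tested on simulated counts. DESeq2 1.42.0, other filters and size factors, the block and leaving out each mouse were alternatives. IDs matched GENCODE vM21 for 99.6% of genes. Sequences came from that annotation's genome and from RefSeq promoter windows. The ratio of Slc5a3 to Mrps6 was tested by exact permutation (Python 3.11.15). Each library total was 23128589 to 40476492 counts, every member had at least 185 counts in each library, and counting error is part of the spread between mice that the SEs hold.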

Additional observations from a re-analysis of the deposited data

Results flagged for a closer look

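In 4 of the 28 groups of 6 libraries that the 7 genes form, the lowest library stood apart from the rest by a gap above Dixon's critical value, as a share of the group's range. The library was labelled Ts65Dn replicate 3 in each case. The gap was 0.768 of the range for Gart in the HIP, 0.878 for Cryzl1 in the HIP, 0.636 for Cbr1 in the EC and 0.675 for Slc5a3 in the EC. By chance, about 5% of groups pass this value, and these groups share libraries. The same mouse was near the wt level over the whole Mmu16 segment in both regions.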

How the results depend on the processing

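The members' fold changes against wt kept their direction under every alternative. DESeq2 called every member but Slc5a3 in both regions. The replicate numbers do not pair wt and Ts65Dn mice (correlation of deviations -0.257 to 0.208 for HIP, -0.125 to 0.188 for EC, with 1 of 6 best with its own number). With them as a replicate block, 0 members were called in the HIP, 1 in the EC (Gart), and 0 pathway genes in the EC. Without the mouse as a block (no replicate block), 1 member differed between regions in Ts65Dn (Hlcs). Without a filter on low counts, 1 member (Slc5a3) differed from 1.5 in the HIP, 1 pathway gene was called in the EC and 37 genes, none of them a member, had an interaction. DESeq2 called 4 pathway genes in the HIP (Akr7a5, Isyna1, Pcx and Slc6a12) and 4 in the EC (Akr7a5, Gpaa1, Isyna1 and Prps2).

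Leaving out each mouse in turn gave 1 to 6 members called in the HIP, and 2 to 7 for the EC. It gave 0 to 1 member differing from 1.5 in the HIP, 0 to 2 pathway genes called there, 0 to 4 pathway genes called for the EC, and 2 to 3 members differing between regions in Ts65Dn. The log2 difference in the ratio of Slc5a3 to Mrps6 was -0.52 to -0.38 (HIP) and -0.56 to -0.45 (EC). Some of the differences that were not called changed sign when 1 mouse was left out, while the interactions of Gart and Hlcs kept theirs. For HIP against EC, Cbr3 was -0.093 to 0.081 in Ts65Dn and -0.083 to 0.036 in wt, and Slc5a3 was -0.074 to 0.084 and -0.027 to 0.038. For the interaction, Cbr1 was -0.076 to 0.0053, Cbr3 -0.056 to 0.12, Cryzl1 -0.019 to 0.045, Pigp -0.085 to 0.058 and Slc5a3 -0.088 to 0.069. The Cryzl1 interaction was -0.00141 without a filter. The cause of these changes was not tested. Over all genes, 181 were called in the HIP and 426 in the EC, against 589 and 1098 with DESeq2, 29 and 36 with the block, and 275 in the EC without a filter. When 1 mouse was left out, 54 to 318 genes were called (HIP), or 90 to 685 (EC).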
